A study of Arabidopsis thaliana with 6 samples.

Results

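The alpha-expansins described here are 10 genes taken by locus from the 33602 loci of the count tables. They are EXPA1 (AT1G69530), EXPA3 (AT2G37640), EXPA4 (AT2G39700), EXPA5 (AT3G29030), EXPA6 (AT2G28950), EXPA8 (AT2G40610), EXPA9 (AT5G02260), EXPA10 (AT1G26770), EXPA11 (AT1G20190) and EXPA15 (AT2G03090), with annotated transcripts of 1315 to 1670 bases in 3 or 4 exons. They were followed in 6 RNA sequencing libraries from sorted leaf cells of Arabidopsis thaliana, Columbia ecotype, 2 libraries from each of 3 transgenic lines. The labels give the genotypes myrBRXp:myrBRX-YFP, BRXL2p:BRXL2-YFP and BRXp:BRX-YFP, so every line carried a YFP-tagged member of the BREVIS RADIX family and no library without a construct was analysed here. BRX and BRXL2 are plant proteins with roles in cell polarity and phloem development, and the lines are named after their constructs. By the series title these were stomatal lineage ground cells (SLGC), which arise as the bigger daughters when precursors of stomata divide unequally. True leaves were harvested 9 days after germination from seedlings given 2 days of cold and then 22 °C, with days of 16 h and nights of 8 h, and about 20000 sorted cells went into each RNA sample. The promoter behind the myrBRX label, the sorting gate, and whether a line was 1 transformant or pooled plants are not given in the sources used here.

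Expansins are small secreted proteins that loosen the plant cell wall without cutting its polymers. They act at acid pH, and plasma membrane proton pumps of the AHA family supply that acidity, which makes pumps and expansins the core of what is called acid growth. Xyloglucan endotransglucosylases (XTH) cut and rejoin the hemicellulose chains of the same wall. The alpha-expansin family is large in Arabidopsis, and its genes differ in where they are used: EXPA7 and EXPA18 are known from root hairs, EXPA2 from germinating seeds, EXPA10 from growing leaves, EXPA1 from guard cells during stomatal opening, and EXPA5 from brassinosteroid-regulated growth.

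The libraries held 25817906 to 42113178 counts, of which organelle loci took 0.558 to 5.34% and the transcribed pseudogene AT1G79245 4.82 to 19.7%. Levels are given as CPM, counts per 1000000 of the library total after scaling by TMM factors, or as CPM per kilobase of transcript where genes are compared with each other. The BRXL2 gene stood at 21.5 and 12.6 CPM in the myrBRX libraries, 1570 and 1378 CPM in BRXL2, and 150.1 and 95.5 CPM in those labelled BRX. The BRX gene stood at 32.3 and 72.7 CPM in the myrBRX libraries, 22.7 and 31.9 CPM in BRXL2, and 6.10 and 11.7 CPM in those labelled BRX. The BRX level was thus lowest in the line labelled with it, so its group is named here by label only, as the libraries labelled BRX. The epidermal gene ATML1 was even, at 90.1 to 131.5 CPM in all 6 libraries, and the stomatal lineage receptor gene TMM was present in all, at 98.6 to 321.8 CPM. BRX 1 and BRX 2 were alike to 0.775 (Pearson's r of log2 CPM across genes, which are not replicates), the lowest value within a line, against 0.905 for myrBRX and 0.795 for BRXL2. BRX 2 was closer to myrBRX 1 (0.837), BRXL2 2 (0.812), myrBRX 2 (0.802) and BRXL2 1 (0.797) than to BRX 1, and BRXL2 1 was as close to BRX 2 as to BRXL2 2. Separate plants behind the 2 libraries of a line are not stated, so p-values measure only how these libraries spread, which may be technical.

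A single gene, EXPA15, had the highest level of the 10 alpha-expansins in each of the 6 libraries. Its level was 45.1 and 115.2 CPM per kilobase in myrBRX, 44.1 and 73.7 in BRXL2, and 62.4 and 79.9 in the libraries labelled BRX. The lines overlap, and its lowest library stood above the highest library of EXPA10, the next gene by mean. EXPA15 made up 70.3 ± 10.9% of the summed CPM per kilobase of the 10 genes in myrBRX, 54.4 ± 2.65% in BRXL2 and 68.6 ± 24.7% in the libraries labelled BRX (SD, n = 2 each). It also had the smallest spread of the 8 tested members, with a highest library 2.61 times its lowest.

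**Figure D1:**
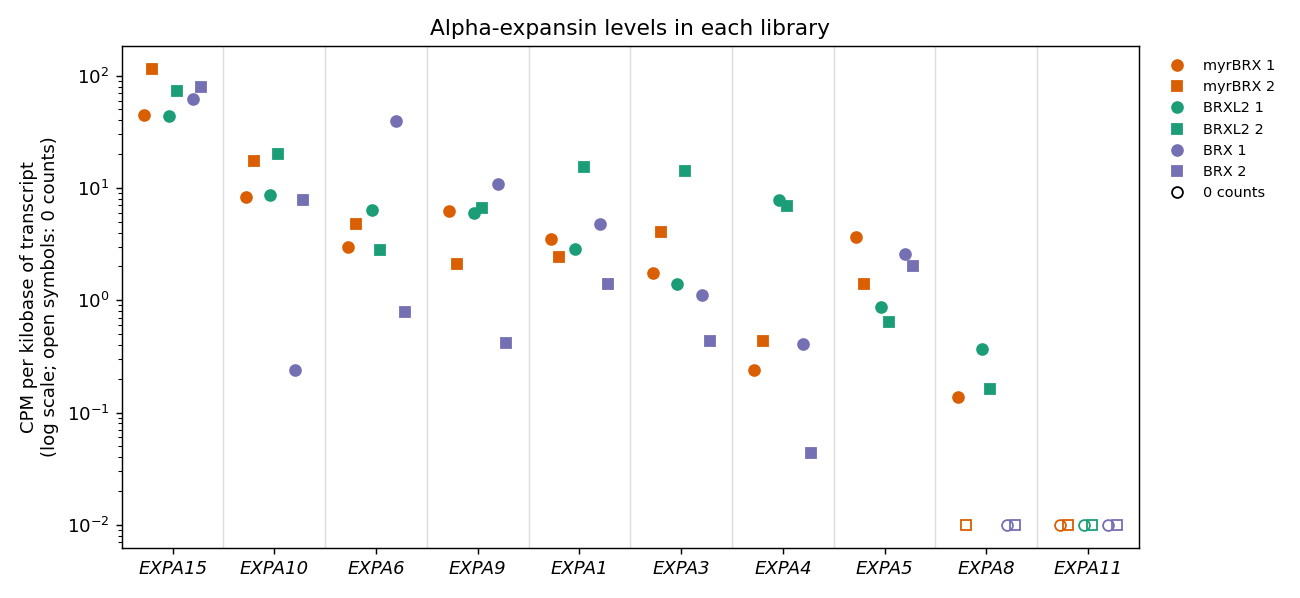
Level of each alpha-expansin in CPM per kilobase of transcript (log axis) in each library; genes run from the highest to the lowest mean, colours mark the lines, circles are replicate 1, squares replicate 2 and open symbols 0 counts. EXPA15 lies between 44.1 and 115.2 in all 6 libraries, EXPA4 is high in the BRXL2 libraries, and EXPA11 has no count anywhere.

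Below EXPA15, the order of the levels was not fixed by these data. By mean over the 6 libraries it ran EXPA10 (10.4 CPM per kilobase), EXPA6 (9.59), EXPA9 (5.39), EXPA1 (5.06), EXPA3 (3.81), EXPA4 (2.64) and EXPA5 (1.86). Each neighbour in this run overlapped the next across libraries: EXPA10 exceeded EXPA6 in 5 of 6 libraries, EXPA6 exceeded EXPA9 in 4, EXPA9 exceeded EXPA1 in 3, and EXPA4 exceeded EXPA5 in 2, which were the BRXL2 libraries. EXPA10, whose suppression is known to give smaller leaves, ranked second in 5 libraries and 8th in BRX 1. In BRX 1 the second place was taken by EXPA6.

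EXPA8 and EXPA11 were at or near the detection limit. EXPA8 had 6 and 0 counts in myrBRX, 23 and 8 in BRXL2, and 0 and 0 in the libraries labelled BRX. A count of 0 allows up to 3 counts, which is 0.0638 to 0.0992 CPM across the libraries. The mean EXPA8 level of 0.352 CPM in BRXL2 was 3.69 times the mean of that limit in the libraries labelled BRX (0.0954 CPM). The counting error of the 23 and 8 counts is not included, so 3.69 is not a lower bound on the difference. EXPA11 had 0 counts in each of the 6 libraries. Both missed the filter on low counts, which 8 of the 10 members passed, and were not tested.

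**Figure D2:**
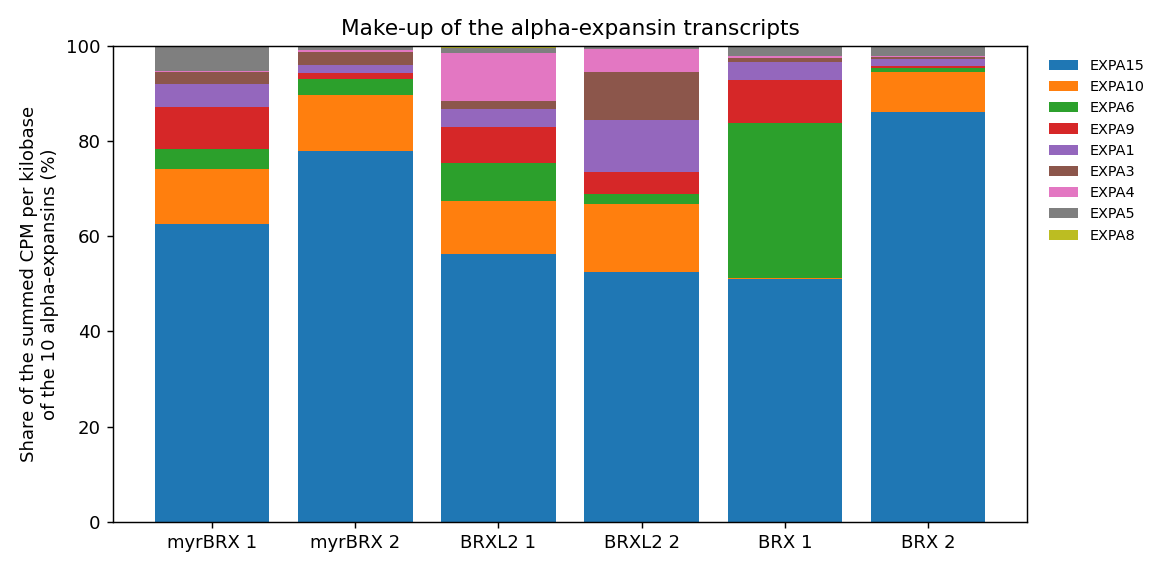
Share of each member in the summed CPM per kilobase of the 10 alpha-expansins (%), 1 stacked bar per library. EXPA15 takes 51.1 to 86.1% of each bar, EXPA6 takes 32.6% in BRX 1 and at most 8.08% elsewhere, and EXPA4 takes 9.94 and 4.91% in the BRXL2 libraries and at most 0.334% elsewhere.

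The summed level of the 10 genes was nearly equal in the lines: 159.9 ± 78.2 CPM in myrBRX, 161.1 ± 65.6 CPM in BRXL2 and 157.7 ± 33.1 CPM in the libraries labelled BRX (SD, n = 2 each). By library it was 104.6 and 215.2 CPM in myrBRX, 114.8 and 207.5 CPM in BRXL2, and 181.1 and 134.2 CPM in those labelled BRX, so the 2 libraries of a line differed more than the lines did. Without EXPA15 the other 9 genes summed to 39.9 and 50.002 CPM in myrBRX, 51.5 and 101.7 CPM in BRXL2, and 91.6 and 19.6 CPM in the libraries labelled BRX. No test was made of these sums. They leave out EXPA13, an alpha-expansin outside the 10. Its means were 186.0 CPM in myrBRX, mostly from myrBRX 2, 14.1 CPM in BRXL2 and 18.9 CPM in the libraries labelled BRX. A lower level in bulk RNA can come from fewer cells of a type or from less RNA per cell, and the data cannot tell these apart.

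Between BRXL2 and the libraries labelled BRX, the member that stood furthest apart was EXPA4. It had 550 and 386 counts in BRXL2, against 20 and 2 in the libraries labelled BRX. That is 11.01 ± 0.963 CPM against 0.338 ± 0.385 CPM (SD, n = 2 each), a ratio of means of 32.6, with both BRXL2 libraries far above the others and close to each other. The log2 fold change was 5.01 ± 1.60 (SE) and did not pass the threshold of 0.05 (unadjusted p = 0.00867, adjusted p = 0.426, edgeR quasi-likelihood test over 18174 genes). DESeq2 did call it, with a log2 fold change of 4.96 ± 1.24 and an adjusted p of 0.00412. Over the other settings tried, the log2 fold change of EXPA4 lay between 4.17 (without BRX 2) and 7.31 (without BRX 1), and the adjusted p over all settings between 0.00412 and 0.639.

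EXPA3 and EXPA10 were also higher, and EXPA5 lower, without overlap between BRXL2 and the libraries labelled BRX, and none of them passed. EXPA3 was at 2.32 and 23.6 CPM in BRXL2, against 1.86 and 0.727 CPM in the libraries labelled BRX (log2 fold change 3.32 ± 1.39, adjusted p = 0.535, edgeR). That difference was carried by BRXL2 2, and was 0.84 without it. EXPA10 was at 13.4 and 30.8 CPM in BRXL2, against 0.366 and 12.0 CPM in the libraries labelled BRX (1.83 ± 1.26, adjusted p = 0.725, edgeR). Without BRX 1, the library almost without EXPA10, the value was 0.88, and without BRX 2 it was 5.90. EXPA5, a gene tied to brassinosteroid-regulated growth, was at 1.23 and 0.910 CPM in BRXL2, against 3.66 and 2.91 CPM in the libraries labelled BRX (-1.61 ± 1.45, adjusted p = 0.815, edgeR).

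The remaining 4 tested members overlapped between BRXL2 and the libraries labelled BRX. EXPA1 was at 4.21 and 22.5 CPM in BRXL2, against 6.90 and 2.05 CPM (log2 fold change 1.58 ± 1.19), and EXPA9 at 8.10 and 9.02 CPM, against 14.9 and 0.562 CPM (0.15 ± 1.33). EXPA15 had a log2 fold change of -0.27 ± 0.80. EXPA6 was at 10.1 and 4.47 CPM in BRXL2, against 63.3 and 1.26 CPM in the libraries labelled BRX (-2.15 ± 1.33, adjusted p = 0.683, edgeR), a direction given by BRX 1, since the value was 2.53 without it.

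By edgeR no member passed for BRXL2 against BRX, where 0.0935% of all genes tested did (17 genes). Of the 8, 2, EXPA3 and EXPA4, had an unadjusted p under 0.05, against 8.85% of all genes. DESeq2 called 1 of the 8, against 4.25% of the genes it tested. The 2 lines did not overlap in 4 of the 8 members, against 33.2% of all genes tested; BRXL2 was the higher in 3 of them, against 18.3% of all genes, and the lower in EXPA5, against 14.9%. The log2 fold changes of the 8 had a median of 0.86, and those of all genes 0.03. Of the 8, 5 were higher and 3 lower in BRXL2 (62.5% higher, against 51.1% of all genes).

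**Figure D3:**
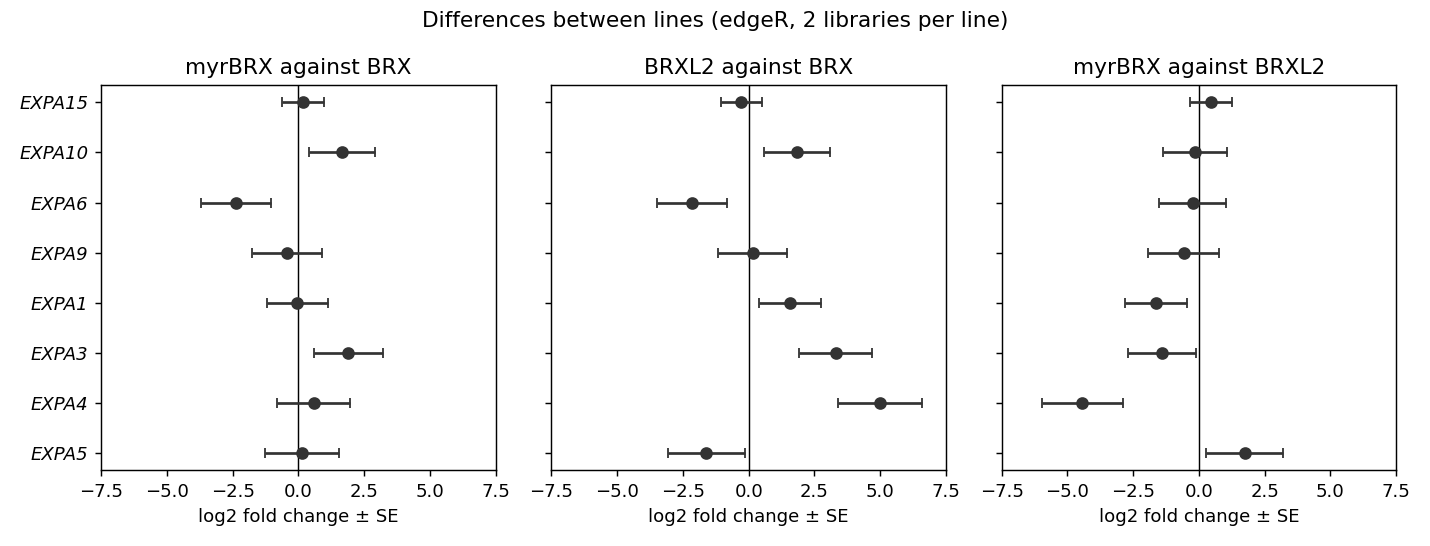
Log2 fold change with its standard error (edgeR, 2 libraries per line) of the 8 tested members in each comparison; values right of 0 are higher in the line named first. EXPA4 lies at 5.01 for BRXL2 against BRX and at -4.43 for myrBRX against BRXL2, and none of the 24 values passed at an adjusted p of 0.05.

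The comparison of myrBRX with BRXL2 showed EXPA4 again as the member furthest apart. It had 12 and 25 counts in myrBRX, against 550 and 386 in BRXL2, that is 0.506 ± 0.205 CPM against 11.01 ± 0.963 CPM (SD, n = 2 each), with no overlap. The log2 fold change was -4.43 ± 1.55 (unadjusted p = 0.0144, adjusted p = 0.294, edgeR), and it lay between -4.93 and -4.07 with any 1 library left out. DESeq2 called it, at -4.43 ± 1.23 and an adjusted p of 0.00995; over all settings the adjusted p lay between 0.00995 and 0.983. This comparison and the previous one share the BRXL2 libraries, so the 2 values are not independent. Both BRXL2 libraries were above the 4 others in EXPA4 alone among the 8 tested members, against 8.56% of all genes tested.

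EXPA5 stood the other way, at 5.18 and 2.01 CPM in myrBRX against 1.23 and 0.910 CPM in BRXL2 (log2 fold change 1.74 ± 1.46, adjusted p = 0.662, edgeR). EXPA1 was at 5.15 and 3.52 CPM in myrBRX, overlapping BRXL2 at 4.21 and 22.5 CPM (-1.62 ± 1.19). EXPA3 was at 2.92 and 6.77 CPM in myrBRX and 2.32 and 23.6 CPM in BRXL2 (-1.42 ± 1.29), which was 1.07 without BRXL2 2. EXPA6, EXPA9, EXPA10 and EXPA15 had log2 fold changes of -0.24 ± 1.28, -0.59 ± 1.33, -0.16 ± 1.22 and 0.44 ± 0.80.

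By edgeR no member passed between myrBRX and BRXL2, where 0.0495% of all genes did (9 genes), and 1 of the 8, EXPA4, had an unadjusted p under 0.05, against 12.4% of all genes. DESeq2 called 1 of the 8, against 6.6% of the genes it tested. The lines did not overlap in EXPA4 (lower) and EXPA5 (higher), 2 of 8, against 49.0% of all genes tested, 24.7% lower and 24.3% higher. The median log2 fold change was -0.41 over the 8 and -0.15 over all genes. Of the 8, 2 were higher and 6 lower in myrBRX (25.0% higher, against 46.3% of all genes).

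Between myrBRX and the libraries labelled BRX no alpha-expansin passed, and the pair labelled BRX spread widely. EXPA10 was at 12.8 and 26.6 CPM in myrBRX, above 0.366 and 12.0 CPM in the libraries labelled BRX (log2 fold change 1.67 ± 1.25, adjusted p = 0.547, edgeR). BRX 1 was the low library: the value was 0.72 without it and 5.75 without BRX 2. EXPA3 was at 2.92 and 6.77 CPM in myrBRX, above 1.86 and 0.727 CPM (1.90 ± 1.32, adjusted p = 0.512, edgeR). EXPA6 was at 4.75 and 7.60 CPM in myrBRX, between the 63.3 and 1.26 CPM of the libraries labelled BRX, and its log2 fold change of -2.38 ± 1.34 (adjusted p = 0.427, edgeR) was 2.30 without BRX 1. EXPA9, at 8.55 and 2.86 CPM in myrBRX, likewise lay between the 14.9 and 0.562 CPM of the libraries labelled BRX (-0.44 ± 1.33, and 3.34 without BRX 1).

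EXPA4 was low in both of these lines, at 0.361 and 0.651 CPM in myrBRX and 0.610 and 0.0661 CPM in the libraries labelled BRX (0.57 ± 1.38). EXPA1, EXPA5 and EXPA15 had log2 fold changes of -0.05 ± 1.16, 0.13 ± 1.42 and 0.17 ± 0.79. By edgeR neither a member nor any other gene passed (0% of 18174), and at an unadjusted p under 0.05 there were 0 of the 8 members, against 14.2% of all genes. DESeq2 called 0 of the 8 members and 8.21% of the genes it tested. The lines did not overlap in EXPA3 and EXPA10, 2 of 8, against 49.1% of all genes, and both were higher in myrBRX, as were 26.7% of all genes. The 8 values had a median of 0.15, and those of all genes -0.03.

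The 2 libraries labelled BRX differed widely in 3 of the members. EXPA6 and EXPA9 had their highest level of the 6 libraries in BRX 1 (21.0% of all genes did), and EXPA10 its lowest there (24.1%). BRX 2 had the lowest level of 5 of the 8 tested members, EXPA1, EXPA3, EXPA4, EXPA6 and EXPA9, against 13.1% of all genes tested. The highest level was in BRXL2 2 for EXPA1, EXPA3 and EXPA10 (16.6% of all genes), in BRXL2 1 for EXPA4 (16.8%), in myrBRX 1 for EXPA5 (12.9%) and in myrBRX 2 for EXPA15 (18.1%). Between BRX 1 and BRX 2, EXPA6 differed 50.4-fold, EXPA10 32.9-fold and EXPA9 26.5-fold, whereas EXPA15 and EXPA5 differed 1.28-fold and 1.26-fold. The 8 members as a set were close to all genes here. Their median absolute log2 difference between these 2 libraries was 1.25, against 1.10 over all genes tested (0.5 CPM added). In the other lines the largest difference between the 2 libraries was 10.2-fold, for EXPA3 in BRXL2, and EXPA4 differed 1.13-fold there. Of the 5 epidermal markers, PDF1, FDH and PDF2 were also highest in BRX 1, at 2929, 2509 and 648.8 CPM, against 90.5 to 657.9, 227.9 to 921.5 and 66.8 to 162.2 CPM in the other 5 libraries. LTP1 went the other way, lowest in BRX 1 at 18.4 CPM and highest in myrBRX 2 at 860.8 CPM, and ATML1 was not highest in BRX 1. All 5 together summed to 611.0 and 1625 CPM in myrBRX, 1371 and 944.2 CPM in BRXL2, and 6211 and 1788 CPM in the libraries labelled BRX, with none at 0. Their part in the EXPA6 and EXPA9 levels was not tested.

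EXPA4 was high in the same 2 libraries as genes of the phloem, the sugar-conducting tissue. APL, a MYB factor that specifies phloem, was at 0.0301 and 0.0260 CPM in myrBRX, 62.2 and 63.9 CPM in BRXL2, and 0 in both libraries labelled BRX. The 5 phloem markers, APL, SUC2, SEOR1, BAM3 and CALS7, summed to 4.21 and 8.41 CPM in myrBRX, 418.3 and 166.4 CPM in BRXL2, and 15.3 and 6.32 CPM in the libraries labelled BRX. SUC2, the sucrose transporter gene of companion cells, went against the rest, at 2.86 and 8.13 CPM in myrBRX, 1.02 and 3.08 CPM in BRXL2, and 10.1 and 2.08 CPM in those labelled BRX. BAM3 had 0 counts in myrBRX 2 and BRX 2. Both BRXL2 libraries stood above the 4 others in APL, SEOR1, BAM3 and CALS7, against 8.56% of all genes tested. By edgeR, 1 of the 5, APL, passed for BRXL2 against BRX (higher, adjusted p = 0.0104), and 2, APL and SEOR1, for myrBRX against BRXL2 (lower, adjusted p = 0.0292 and 0.0472). The part of phloem cells in the EXPA4 level was not tested.

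Of the 8 stomatal lineage and 7 guard cell markers, TGG2, MUTE, KAT1 and SDD1 were also highest in both BRXL2 libraries, as were 8.56% of all genes tested. Others were not: TGG1 and OST1 had their highest mean in myrBRX, and POLAR in the libraries labelled BRX. TGG2, a myrosinase gene listed here with the guard cell markers, was at 0.0301 and 0.0781 CPM in myrBRX, 47.7 and 27.6 CPM in BRXL2, and 3.57 and 5.32 CPM in the libraries labelled BRX. It passed for myrBRX against BRXL2 (lower, adjusted p = 0.0365, edgeR). MUTE, the bHLH gene that ends the self-renewing divisions, was at 0.0903 and 0.0521 CPM in myrBRX, 13.4 and 11.1 CPM in BRXL2, and 0.763 and 0 CPM in those labelled BRX. It did not pass for BRXL2 against BRX (adjusted p = 0.486, edgeR) or for myrBRX against BRXL2 (adjusted p = 0.225, edgeR). The summed levels of the 7 guard cell markers did not follow EXPA4. They were 958.4 and 439.7 CPM in myrBRX, 580.001 and 166.4 CPM in BRXL2, and 99.4 and 143.6 CPM in the libraries labelled BRX. Most of this was TGG1, with means of 638.1, 291.7 and 98.5 CPM in that order. By gene, all 7 were higher in BRXL2 against BRX (51.1% of all genes were). In myrBRX against BRXL2, 3 were higher and 4 lower (46.3% of all genes higher). The sums of the 8 stomatal lineage markers did not follow EXPA4 either. They were 404.7 and 223.3, 738.0 and 519.5, and 1332 and 525.3 CPM in the same order of lines. By gene, 5 were higher and 3 lower in BRXL2 against BRX, and 1 higher and 7 lower in myrBRX against BRXL2. The 5 mesophyll markers summed to 242.7 to 942.4 CPM over the 6 libraries, the 4 xylem markers to 0.883 to 8.76 CPM and the 3 trichome markers to 0.0781 to 2.74 CPM. The part of these cells in the EXPA4 level was not tested.

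**Figure D4:**
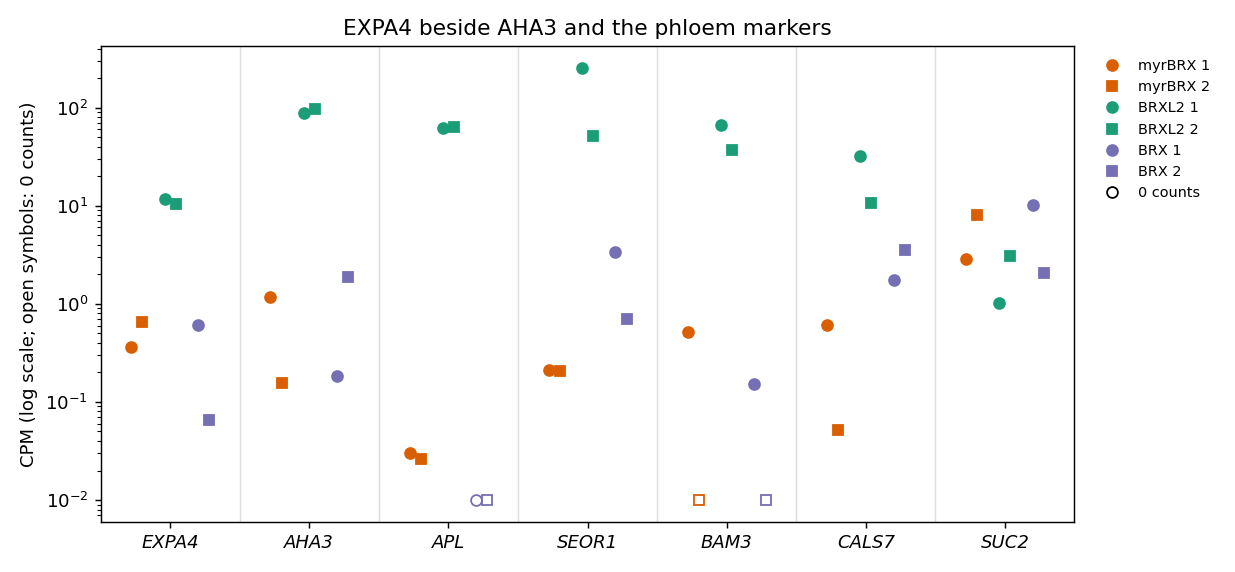
CPM (log axis) of EXPA4, the proton pump gene AHA3 and the 5 phloem markers in each library; colours mark the lines, circles are replicate 1, squares replicate 2 and open symbols 0 counts. EXPA4, AHA3, APL, SEOR1, BAM3 and CALS7 are highest in the BRXL2 libraries, and SUC2 is not. Of all genes tested, 8.56% are highest in both BRXL2 libraries.

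Most of the other expansins had no counts in these libraries. Of the 15 other alpha-expansins, 12 had 0 counts in each of the 6 libraries, the root hair genes EXPA7 and EXPA18 and the seed gene EXPA2 among them. EXPA13 and EXPA20 were the 2 that could be tested, and neither passed (adjusted p of at least 0.295 in the pairwise tests, edgeR). EXPA13 was at 10.9 and 361.2 CPM in myrBRX, 11.3 and 16.9 CPM in BRXL2, and 8.00 and 29.8 CPM in the libraries labelled BRX, so that in myrBRX 2 it exceeded EXPA15 (250.5 against 115.2 CPM per kilobase). EXPA20 was at 4.36 and 7.40 CPM in myrBRX, 1.06 and 11.2 CPM in BRXL2, and 5.83 and 11.3 CPM in the libraries labelled BRX. EXPA16 had 3 and 34 counts in myrBRX, 0 and 2 in BRXL2, and 0 and 0 in those labelled BRX.

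Of 10 beta-expansins and expansin-like genes, 6 had 0 counts in all libraries, 4 were tested and 0 passed in any comparison by edgeR. EXPB3 was at 3.28 and 2.84 CPM in myrBRX, 3.13 and 18.7 CPM in BRXL2, and 26.3 and 10.8 CPM in the libraries labelled BRX, the myrBRX libraries lying below those labelled BRX (log2 fold change -2.60 ± 1.11, adjusted p = 0.326, edgeR). EXLA1 was at 2.77 and 13.6 CPM in myrBRX, 1.15 and 1.98 CPM in BRXL2, and 0.488 and 1.26 CPM in those labelled BRX. EXLA2 was at most 7.25 CPM.

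The proton pumps that acidify the wall were present at high and even levels through AHA1, at 103.6 and 140.1 CPM in myrBRX, 100.1 and 160.4 CPM in BRXL2, and 117.5 and 131.4 CPM in the libraries labelled BRX. Of 11 pump genes 10 were tested, and none passed in a pairwise comparison by edgeR. AHA3, a pump gene known from phloem companion cells, differed among the 3 lines (adjusted p = 0.045 for any difference, edgeR, where 0.226% of all genes passed). It was at 1.17 and 0.156 CPM in myrBRX, 88.6 and 95.6 CPM in BRXL2, and 0.183 and 1.88 CPM in the libraries labelled BRX, the same 2 high libraries as EXPA4. In that test EXPA4 had an adjusted p of 0.178, and no alpha-expansin passed. AHA9 was at 11.2 and 8.00 CPM in myrBRX, 43.4 and 219.8 CPM in BRXL2, and 26.3 and 22.1 CPM in those labelled BRX, and AHA5 at 21.3 and 34.7 CPM in myrBRX, 5.04 and 1.02 CPM in BRXL2, and 0.214 and 3.14 CPM in those labelled BRX. Both BRXL2 libraries stood above the 4 others in AHA8 and AHA9 as well as in AHA3, against 8.56% of all genes tested. The 6 genes of the SAUR19 subfamily, small auxin-induced proteins that keep the pumps active, had 0 counts in 4 cases and none was testable.

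Of 24 XTH genes 19 were tested and 0 passed in any comparison by edgeR. XTH9 had the lowest p of them over the 3 lines and showed a graded pattern, at 5.09 and 5.08 CPM in myrBRX, 36.4 and 17.2 CPM in BRXL2, and 69.4 and 76.5 CPM in the libraries labelled BRX (log2 fold change of myrBRX against BRX -3.84 ± 0.85, adjusted p = 0.202, edgeR). XTH23 was at 8.34 and 1.17 CPM in myrBRX, 5.10 and 97.8 CPM in BRXL2, and 0.671 and 0 CPM in those labelled BRX. XTH5 was at 0.512 and 0.0781 CPM in myrBRX, 6.02 and 2.11 CPM in BRXL2, and 0 in both libraries labelled BRX. In XTH5, XTH16 and XTH32 both BRXL2 libraries stood above the 4 others, as in 8.56% of all genes tested. The 19 log2 fold changes had a median of 1.18 in myrBRX against BRX, 1.14 in BRXL2 against BRX and -1.80 in myrBRX against BRXL2, beside -0.03, 0.03 and -0.15 over all genes, and the first 2 did not change with XTH5 set to its bound. In myrBRX against BRX 10 were higher and 9 lower, so the median of 1.18 does not stand for a shared rise. In BRXL2 against BRX 13 were higher (68.4%, against 51.1% of all genes). In myrBRX against BRXL2 7 were higher (36.8%, against 46.3%).

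The genes most like the 2 most abundant members across the 6 libraries were found by Pearson's r of log2 CPM among 4206 genes with a symbol. For EXPA15 they were GPT1 (r = 0.968), which encodes a plastid glucose-6-phosphate transporter, ERD4 (0.965), a dehydration-induced gene, and IAA9 (0.942), an auxin response repressor gene; like EXPA15, all 3 were highest in myrBRX 2. For EXPA10 they were AT2G01180, listed as PAP1 (0.992), NUDT8 (0.989) and OZF1 (0.986), all lowest in BRX 1. Of the 4206 genes, 29 exceeded 0.95 with EXPA10 and 2 with EXPA15. All these values rest on the same 6 libraries and are a description. The shared highest and lowest libraries largely follow from choosing genes by r.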

How the data were processed

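The authors deposited raw counts per locus, 1 library per table. The unit was read from the values, whole numbers with a different total per library. Reads were aligned with Bowtie2 to TAIR10, per the submitters' processing notes. How reads were counted, with or without strand, and what was done with those matching several loci is not given in the sources used here, so counts of closely related expansins may share reads and antisense reads may be included. Libraries came from 20 ng of RNA with an integrity number above 8; cDNA came from the Ovation RNA-Seq System V2 kit, per the labels. No molecular identifiers are named in the sources used here, so the limit of 3 counts covers counting error only.

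Here, edgeR 4.0.16 under R 4.3.3 tested the counts: filterByExpr at a minimum of 10 counts (18174 genes kept), TMM factors, glmQLFit and glmQLFTest (two-sided) with 1 coefficient per line and all 6 libraries, and Benjamini-Hochberg adjustment over all genes tested. The common dispersion was 0.782. SEs are the log2 fold change over the root of its F statistic. DESeq2 1.42.0, other scalings, filters, a replicate block and each library left out were the alternatives. Transcript length is that of the longest RefSeq transcript of a TAIR10.1 annotation, which also gave names (32835 loci matched, 10654 with a symbol). Its exon positions were used only for transcript lengths and exon numbers. No coordinates or sequences from it are printed, since its build is not the one named for the counts. Promoter motifs were not analysed here. For likeness, 0.5 CPM was added before the log and genes had to average 3 or more in log2 CPM. The members and all gene lists were chosen with earlier results of these data known. All 10 members are named. From each other list the rule names the genes past the threshold, or else the 3 of lowest p over the 3 lines; marker lists without a call are given as sums. AHA1, AHA5, AHA9, EXPA16, MUTE, TMM, ATML1, PDF1, PDF2, FDH, LTP1 and the uncalled phloem markers were named after their values were seen. So were KAT1, SDD1, TGG1, OST1, POLAR, AHA8, XTH16 and XTH32.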

Additional observations from a re-analysis of the deposited data

How the results depend on the processing

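The number of genes called depended on the method, and for alpha-expansins EXPA4 was the member whose call changed. For myrBRX against BRX, BRXL2 against BRX, myrBRX against BRXL2 and any difference, the main counts were 0, 17, 9 and 41. They were 1465, 759, 1177 and 1485 with DESeq2, 724, 403, 657 and 1423 without a filter, and 29, 33, 42 and 266 when replicate number was a block. With a stricter filter (50 counts) BRXL2 against BRX gave 4, myrBRX against BRXL2 gave 0 and any difference gave 27. Using the compared lines alone gave 0 calls in BRXL2 against BRX and 22 in myrBRX against BRXL2, where RLE and upper-quartile factors each gave 5. Leaving out 1 library gave 1 to 327, 6 to 221, 24 to 119 and 130 to 661. Alpha-expansins called were 0 as reported. With DESeq2 there was 1 in each comparison with BRXL2 and 1 for any difference, and without a filter 1 for any difference (adjusted p = 0.0288), EXPA4 each time. The cause of these changes was not tested.

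Of 336 alternative values for the 24 member differences, 22 had the opposite sign, none of them called. Of these, 20 came from leaving out 1 library. The ranges over left-out libraries for myrBRX against BRX were -0.66 to 1.08 (EXPA1), -0.26 to 2.88 (EXPA4), -0.70 to 0.66 (EXPA5), -3.35 to 2.30 (EXPA6), -1.42 to 3.34 (EXPA9) and -0.65 to 0.70 (EXPA15). For BRXL2 against BRX they were -0.0895 to 2.70 (EXPA1), -3.12 to 2.53 (EXPA6), -0.80 to 3.92 (EXPA9) and -0.69 to 0.0552 (EXPA15). For myrBRX against BRXL2 they were -2.37 to 0.0486 (EXPA1), -2.28 to 1.07 (EXPA3), -0.70 to 0.47 (EXPA6), -0.79 to 0.57 (EXPA10) and -0.39 to 0.97 (EXPA15). The replicate block gave 0.18 for EXPA9 in myrBRX against BRX and 0.27 for EXPA6 in myrBRX against BRXL2. The replicate numbers were not shown to pair the libraries: differences between replicates 1 and 2 correlated across lines at 0.0647 to 0.16. EXPA15 was the highest member in all 6 libraries both by CPM and per kilobase; the order of members within a library cannot change with the scaling. With 2 libraries per line and a biological coefficient of variation of 0.884, a lone library is assumed to vary like the rest.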
